A study of Mus musculus with 4 samples.

Results

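The genes described here are the subunits of the mitochondrial respiratory chain and ATP synthase, taken from RNA sequencing of mouse brain endothelial cells. They were selected by gene symbol and biotype, and the list was proposed with earlier results of these data known. The rule took protein-coding genes listed in both deposited tables. Their symbols follow the naming of complex I (Nduf with a, b, c, s or v), complex II (Sdha to Sdhd) or complex III (Uqcr). Symbols of complex IV (Cox4 to Cox8), complex V (Atp5) and the mitochondrial chromosome (mt-) were also taken. There were 88 such genes among the 14100 listed in both tables, of which 78 are encoded in the nucleus and 10 on the mitochondrial chromosome. By the role of their products the nuclear genes comprised 35 of complex I, 4 of complex II, 8 of complex III, 14 of complex IV and 15 of complex V. Ndufa4 was placed in complex IV, where its product is found. The other 2, Atp5s and Atp5sl, carry the symbol of ATP synthase without encoding one of its subunits.

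The cells came from C57BL/6 embryos at embryonic day 18. The genotype STINGECKO, a name the labels do not spell out, had 2 libraries (replicates 1 and 2), and wild type (WT) had 2 (replicates 3 and 5). The labels do not give the allele, the Cre driver or the number of embryos behind a library, and the design text of the series speaks of triplicates. The labels do not say that the libraries came from separate animals, so every p-value reflects only how far these libraries spread, and that spread may be technical. One deposited table holds STINGECKO 1 beside WT 3 and the other STINGECKO 2 beside WT 5.

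The respiratory chain passes electrons from NADH and succinate to oxygen through complexes I to IV and pumps protons across the inner mitochondrial membrane, and complex V uses that gradient to make ATP. Complexes I, III, IV and V are built from subunits of both genomes, while all subunits of complex II are nuclear. The mitochondrial genes are transcribed as long polycistronic RNAs and cut into separate messages, whereas the nuclear genes are transcribed singly, many of them from promoters bound by NRF1, GABP or YY1. Brain endothelial cells form the blood-brain barrier and have long been described as rich in mitochondria.

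Depth and identity of the libraries bear on every value below. The genes in both tables held 18540854 and 22129270 reads in STINGECKO 1 and 2 and 21394307 and 20540070 reads in WT 3 and 5. Tmem173, which encodes STING, had 67 and 182 reads in the STINGECKO libraries and 97 and 130 in the WT libraries (3.65 and 8.32 against 4.48 and 6.27 CPM), so its level did not separate the genotypes. CPM is reads per 1000000 reads after scaling with edgeR's TMM factors. All 12 endothelial markers were listed, with summed levels of 26780 to 27810 CPM in STINGECKO and 26392 to 27173 CPM in WT. Summed pericyte and smooth muscle markers were at 9998 to 10328 CPM against 7425 to 8064 CPM, and the 10 microglia and macrophage markers at 417 to 547 against 550 to 1345 CPM. Neuron markers summed to 42.2 to 63.8 against 73.6 to 123 CPM, astrocyte markers to 10.2 to 53.6 against 85.7 to 107 CPM, oligodendrocyte markers to 121 to 163 against 182 to 207 CPM, and fibroblast markers to 277 to 286 against 182 to 234 CPM. Erythroid markers ranged from 1229 to 2853 CPM in STINGECKO and 1314 to 2516 CPM in WT. Acta2 and Acsbg1 had 0 reads in both STINGECKO libraries, and no listed marker had 0 reads in both WT libraries. STINGECKO 2 had 0 reads for 1855 of the 14100 genes (13.2%), against 378, 740 and 337 in STINGECKO 1, WT 3 and WT 5. Xist, the RNA of the inactive X chromosome, had 0 and 876 reads in STINGECKO 1 and 2 and 2347 and 3374 in WT 3 and 5, and the Y-linked Ddx3y was listed only beside STINGECKO 1, with 3623 reads. The part of any of these differences in the results below was not tested, and in bulk RNA fewer cells of a type and less RNA per cell cannot be told apart.

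The first result concerns sequence. Of 13 protein-coding genes annotated on the mouse mitochondrial chromosome, the 10 analysed are mt-Nd1, mt-Nd2, mt-Nd4, mt-Nd5 and mt-Nd6 of complex I, mt-Cytb of complex III, mt-Co1, mt-Co2 and mt-Co3 of complex IV, and mt-Atp6 of complex V. mt-Nd3 was listed in one table only, with 3 reads in STINGECKO 1 and 8 in WT 3. The genes mt-Atp8 and mt-Nd4l are not analysed here. Chromosome 1 carries 7 annotated nuclear copies of mitochondrial genes side by side, and several match the mitochondrial gene base for base. The stretches below are shown because mt-Co2 and its copy are the same while mt-Co1 and its copy can be told apart at one end. They are bases 171 to 230 of mt-Co2 (GRCm38, chrMT:7183-7242, plus strand) and of Gm28661 (chr1:24615336-24615395, minus strand), and bases 1054 to 1113 of mt-Co1 (chrMT:6381-6440, plus strand) beside bases 1 to 60 of Gm29216 (chr1:24616138-24616197, minus strand). Capitals mark the bases that differ between a gene and its copy.
mt-Co2: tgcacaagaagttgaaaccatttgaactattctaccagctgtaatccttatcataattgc
Gm28661: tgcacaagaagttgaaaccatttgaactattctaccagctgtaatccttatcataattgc
mt-Co1: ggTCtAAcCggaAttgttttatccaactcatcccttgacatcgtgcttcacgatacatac
Gm29216: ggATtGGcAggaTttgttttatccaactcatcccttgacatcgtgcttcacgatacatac

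Over their full aligned lengths, Gm28661 and mt-Co2 were identical at 681 of 681 bases, Gm10925 and mt-Atp6 at 678 of 678, Gm28437 and mt-Co3 at 783 of 783, and Gm28439 and part of mt-Nd4 at 876 of 876. Gm29216 and mt-Co1 shared 486 of 492 bases. The 6 differences, counted from 1 at the start of the mitochondrial gene with the base of mt-Co1 first, are T1056A, C1057T, A1059G, A1060G, C1062A and A1066T. To describe how much of each message could be assigned to it, every window of 50 bases of its transcript was looked up in all other annotated transcripts of GENCODE on either strand. All windows of mt-Nd1, mt-Nd6 and mt-Cytb were unique (100%), as were 92.4% of mt-Nd5 and 91.8% of mt-Nd2. The share was 48.9% for mt-Co1 and 37.8% for mt-Nd4, and it was 0.475% for mt-Atp6, 0.136% for mt-Co3 and 0% for mt-Co2. The sources used here give neither the read length nor the handling of reads with several matches. With windows of 36 or 75 bases the same 3 genes stayed under 1%.

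Among the mitochondrial genes analysed, those with almost no unique windows had the fewest reads. mt-Co1, a catalytic subunit of cytochrome c oxidase, had 75326 and 78131 reads in STINGECKO 1 and 2, against 121932 and 91725 in WT 3 and 5. Its partner in the same complex, mt-Co2, had 29 and 96 reads in STINGECKO and 62 and 40 in WT. mt-Co3, the third mitochondrial subunit of that complex, had 27 and 23 reads in STINGECKO and 51 and 16 in WT. mt-Atp6, the proton channel subunit of ATP synthase, had 351 and 369 reads in STINGECKO and 552 and 307 in WT. These 3 genes were low in all 4 libraries, and the genotypes overlapped in each. Per kilobase of transcript, mt-Co1 averaged 2870 CPM over the 4 libraries, mt-Cytb 2044 and mt-Nd1 1023, whereas mt-Atp6 averaged 28.0, mt-Co2 3.93 and mt-Co3 1.80 CPM per kilobase. The copies of these genes had few reads as well. Gm28661 had 14 and 42 reads in STINGECKO and 37 and 24 in WT, and Gm28437 had 19 and 21 against 33 and 20. Gm10925 had 304 and 332 reads in STINGECKO and 521 and 281 in WT, which was close to the reads of mt-Atp6 in each library. Levels of mt-Co2, mt-Co3 and mt-Atp6 are therefore uncertain, and the part of the shared sequence in them was not tested.

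**Figure D1:**
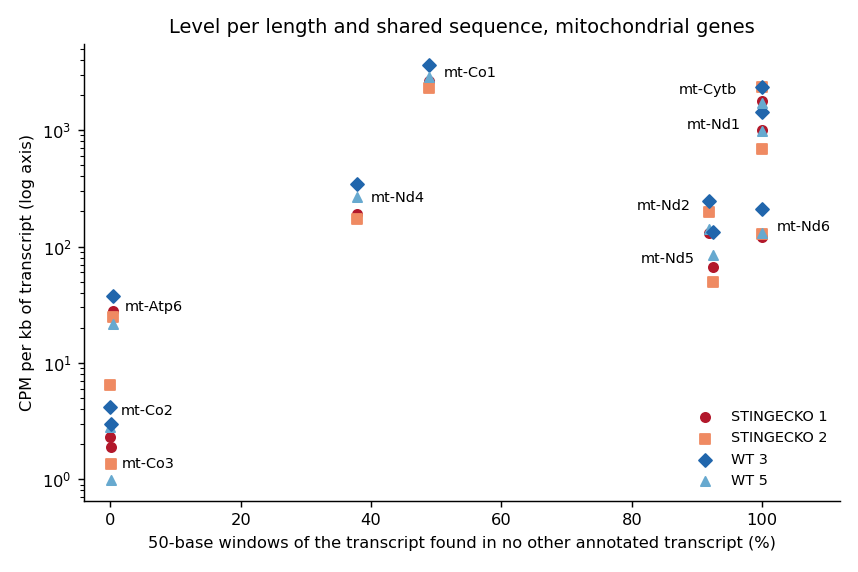
Level per kilobase of transcript (CPM per kb, log axis) of the 10 mitochondrially encoded genes in each of the 4 libraries against the share of their 50-base windows found in no other annotated transcript. Each point is 1 library. The 3 genes under 1% unique windows lie below all 7 others in every library.

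Between STINGECKO and WT no member differed past the threshold. With edgeR's quasi-likelihood test and Benjamini-Hochberg adjustment, 0 of 13365 genes were called (0.0% called), and hence 0 of the 87 members that passed the filter on low counts, 77 nuclear and 10 mitochondrial. The smallest adjusted p of any gene was 0.977. At an unadjusted p under 0.05 stood 642 of all genes (4.80%) and 4 of the 87 members: mt-Nd4, Ndufs1, Atp5sl and mt-Nd5. DESeq2 called 87 of the 13365 genes (0.651% called) and limma-voom 0, and neither called a member. The one member left out by the filter was Cox6b2, an isoform of complex IV best known from testis, with 4 and 1 reads in STINGECKO and 8 and 57 in WT.

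The fitted differences of the 2 genomes nevertheless had opposite medians. The median log2 fold change, STINGECKO over WT, was -0.35 over the 10 mitochondrial genes, 8 of them below 0, and 0.18 over the 77 nuclear genes, 53 of them above 0. Over all 13365 genes tested the median was -0.03, with 6447 (48.2%) above 0. These are descriptions of lists chosen with earlier results known, and both rest on single libraries: the nuclear median was -0.16 without STINGECKO 2 and 0.43 without STINGECKO 1, and the mitochondrial median was 0.08 without WT 3 and -0.66 without WT 5. The genotypes did not overlap for 10 nuclear members that were higher in STINGECKO, where 15.4% of all genes tested did so, and for 7 tested nuclear members that were lower, where 19.0% of all genes did so. Of the 10 mitochondrial members, 0 were higher and 4 lower without overlap.

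**Figure D2:**
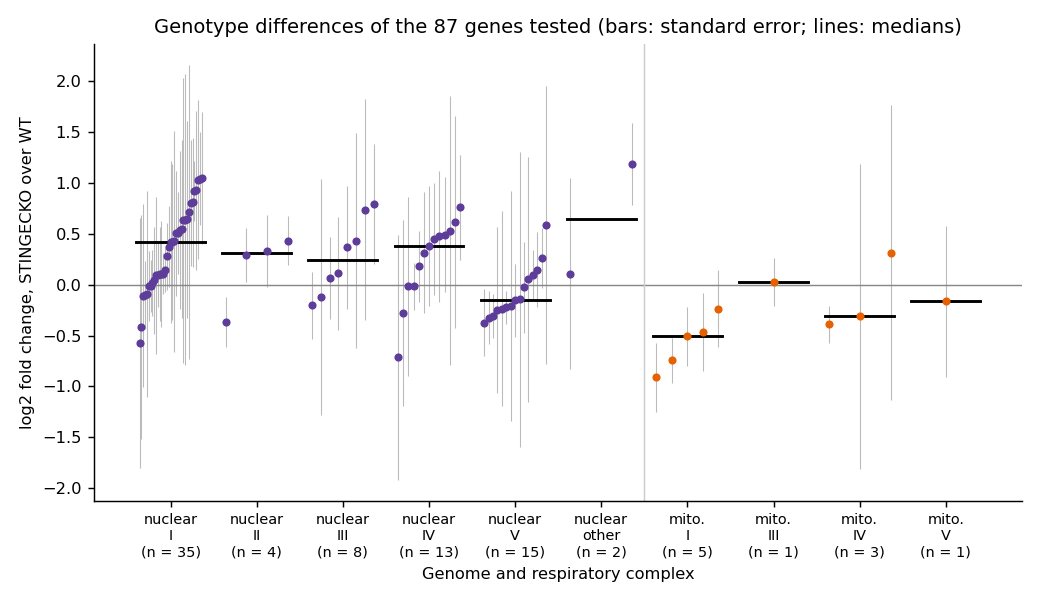
Log2 fold change of STINGECKO over WT for the 87 genes tested, grouped by genome and complex; points are genes, grey bars standard errors and black lines group medians. Complex I of the nucleus has its median at 0.42, the nuclear complex V genes at -0.15 and the mitochondrial complex I genes at -0.51, and no gene passed the adjusted threshold.

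Reads of all mitochondrial members together made up 0.763% of the reads of STINGECKO 1 (95% exact binomial interval 0.759% to 0.767%) and 0.744% of STINGECKO 2 (0.741% to 0.748%), against 1.09% of WT 3 (1.085% to 1.094%) and 0.815% of WT 5 (0.811% to 0.819%). These intervals cover counting error only. WT 3 was high, both STINGECKO libraries lay below both WT libraries, and the gap between WT 3 and WT 5 exceeded that between WT 5 and STINGECKO 1. That separation was not seen without the members of fewer unique windows, mt-Co1 among them. Over the 5 mitochondrial members with over 90% unique windows, a restriction chosen after seeing the data, summed levels were 3321 and 3701 CPM in STINGECKO and 4640 and 3267 CPM in WT, and the genotypes overlapped. Group means were 0.754% ± 0.013 in STINGECKO and 0.953% ± 0.194 in WT (SD, n = 2 each). Nuclear members made up 0.715% of reads in STINGECKO 1 (0.712% to 0.719%) and 0.930% in STINGECKO 2 (0.926% to 0.934%), against 0.730% in WT 3 (0.727% to 0.734%) and 0.814% in WT 5 (0.810% to 0.818%). Here STINGECKO 2 was high, STINGECKO 1 was the lowest of the 4, and the genotypes overlapped. The ratio of mitochondrial to nuclear member reads was 1.07 in STINGECKO 1 and 0.800 in STINGECKO 2, against 1.49 in WT 3 and 1.00 in WT 5. These ratios overlapped, because STINGECKO 1 lay above WT 5. With 2 libraries a genotype no permutation test can pass a threshold of 0.05, and none was made for these sums.

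The mitochondrial complex I genes encode the membrane arm through which protons are pumped. For mt-Nd4, 37.8% of the 50-base windows were unique, so its counts are uncertain. It was at 264 and 237 CPM in STINGECKO and 471 and 367 CPM in WT. It was lower in both STINGECKO libraries than in either WT library, with a log2 fold change of -0.74 (SE 0.22, unadjusted p = 0.0194, adjusted p = 0.977 by edgeR's quasi-likelihood test, Benjamini-Hochberg adjusted). mt-Nd5 was at 122 and 89.6 CPM in STINGECKO and 244 and 154 CPM in WT, with a log2 fold change of -0.91 (SE 0.34) and an adjusted p of 1.00 by the same edgeR test. mt-Nd6, the one protein-coding gene on the light strand, was at 62.6 and 65.9 CPM in STINGECKO and 110 and 67.2 CPM in WT. Its genotypes did not overlap either, but WT 5 lay much closer to the STINGECKO libraries than to WT 3. mt-Nd1 was at 961 and 655 CPM in STINGECKO and 1362 and 937 CPM in WT, and mt-Nd2 at 136 and 207 against 257 and 147 CPM. In both genes WT 3 was highest and the genotypes overlapped. mt-Nd5 and mt-Nd6 overlap at their ends on opposite strands (chrMT:11742-13565 and chrMT:13552-14070), and whether strand was used in the counting is not stated in the sources used here.

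mt-Cytb, the electron-carrying core of complex III, did not share that order. It was at 2039 and 2684 CPM in STINGECKO and 2668 and 1961 CPM in WT, so that STINGECKO 2 and WT 3 were alike and high (log2 fold change 0.03, SE 0.23). mt-Co1 was at 4106 and 3572 CPM in STINGECKO and 5637 and 4424 CPM in WT, lower in both STINGECKO libraries (log2 fold change -0.39, SE 0.18, adjusted p = 1.00 by edgeR's quasi-likelihood test, Benjamini-Hochberg adjusted). It supplied 53.2% and 47.4% of the mitochondrial member reads in STINGECKO 1 and 2, against 52.3% and 54.8% in WT 3 and 5. With 48.9% of its 50-base windows unique, the counts of mt-Co1 are uncertain too. Across the 10 mitochondrial genes WT 3 was the highest library in 8 and STINGECKO 2 in the other 2, mt-Cytb and mt-Co2. Of the rRNAs of the mitochondrial ribosome, which are no members, mt-Rnr2 had 64263 and 47142 reads in STINGECKO and 78143 and 70897 in WT, while mt-Rnr1 had 3291 and 2178 against 2254 and 3262. WT 3 was thus highest for mt-Rnr2 but not for mt-Rnr1. These reads are not scaled for depth. Scaled for depth, mt-Rnr2 overlapped between the genotypes, with STINGECKO 1 above WT 5 and close to WT 3.

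**Figure D3:**
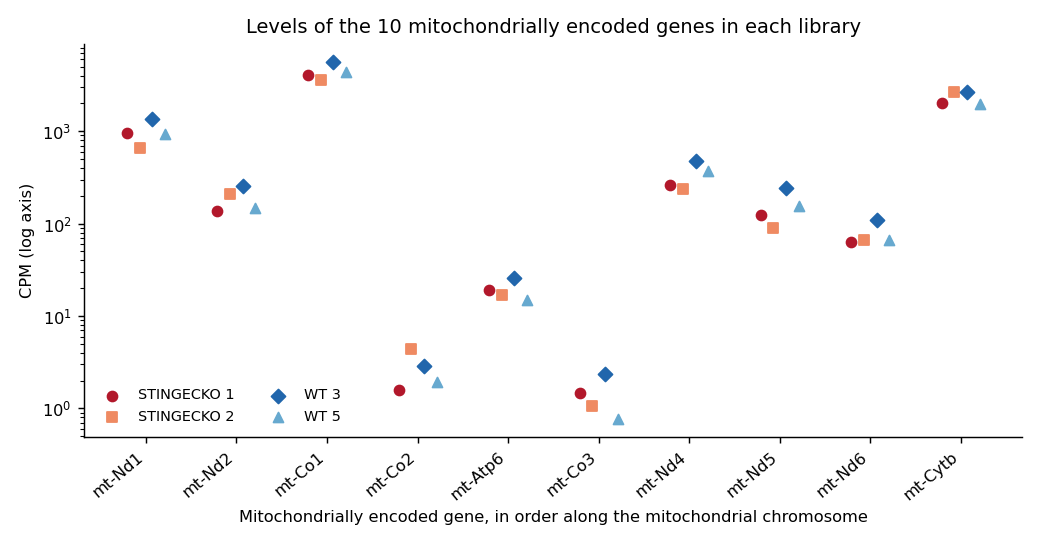
CPM (log axis) of each mitochondrially encoded gene in the 4 libraries, with genes in their order along the mitochondrial chromosome. WT 3 is highest in 8 of the 10 genes, and mt-Co2, mt-Atp6 and mt-Co3 lie under 30 CPM between mt-Co1 at 3572 to 5637 CPM and mt-Nd4 at 237 to 471 CPM.

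Nuclear complex I genes had the most members above 0, 28 of 35, with a median log2 fold change of 0.42. Their summed level was 1952 CPM in STINGECKO 1 and 2934 in STINGECKO 2, against 1986 in WT 3 and 1942 in WT 5. STINGECKO 1 thus lay with the WT libraries and STINGECKO 2 apart from them. Of the 35 genes 0 passed the test. Ndufs1, which encodes the largest iron-sulfur subunit of the electron-input arm, was at 146 and 211 CPM in STINGECKO and 99.5 and 89.1 CPM in WT. Its genotypes did not overlap, and its log2 fold change was 0.92 (SE 0.29, unadjusted p = 0.0251, adjusted p = 0.977 by edgeR's quasi-likelihood test, Benjamini-Hochberg adjusted). Ndufa12, an accessory subunit of the same arm, was at 54.8 and 79.0 CPM in STINGECKO and 37.4 and 27.5 CPM in WT (log2 fold change 1.04, SE 0.46). Ndufb11, an accessory subunit of the membrane arm, was at 65.9 and 117 CPM in STINGECKO and 64.4 and 64.4 CPM in WT, where STINGECKO 1 exceeded WT by under 2 CPM. Ndufv1, the subunit that binds NADH and flavin and the most abundant nuclear complex I message by CPM, was at 316 and 346 CPM in STINGECKO and 283 and 331 CPM in WT. At the other end, Ndufa1 had 20 and 23 reads in STINGECKO and 14 and 15 in WT, so its genotypes were separated by 5 reads. Ndufb11 and Ndufa1 lie on chromosome X. The libraries differed in Xist as given above, and the part of this in both genes was not tested.

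Complex II carries succinate dehydrogenase and has no mitochondrial gene. Its membrane anchor genes went in different directions. Sdhd was at 397 and 554 CPM in STINGECKO and 329 and 376 CPM in WT (log2 fold change 0.43, SE 0.24), and Sdhc at 108 and 105 CPM against 136 and 139 CPM (log2 fold change -0.37, SE 0.25). The genotypes did not overlap in either gene, and Sdhc was even within each genotype. Sdha, the flavoprotein that oxidizes succinate, was at 383 and 367 CPM in STINGECKO and 242 and 369 CPM in WT, where only WT 3 was low. Sdhb, its iron-sulfur partner, was at 76.5 and 104 CPM in STINGECKO and 80.4 and 62.9 CPM in WT, with overlap.

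Complex III genes had a median log2 fold change of 0.24, with 6 of 8 above 0 and 0 past the test. Uqcrc1, a core subunit, was at 84.5 and 64.6 CPM in STINGECKO and 82.8 and 88.7 CPM in WT. Uqcrfs1, the Rieske iron-sulfur protein, was at 25.2 and 31.6 CPM in STINGECKO and 21.1 and 23.0 CPM in WT, without overlap (log2 fold change 0.37, SE 0.60). Uqcrq, a small accessory subunit, had the highest mean CPM of the complex and was uneven, at 81.8 and 268 CPM in STINGECKO and 83.5 and 118 CPM in WT. Uqcrh, the hinge protein, had the lowest, at 6.98 and 6.13 CPM in STINGECKO and 4.95 and 9.31 CPM in WT.

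The nuclear complex IV genes had a median log2 fold change of 0.38, with 9 of 13 tested genes above 0 and 0 past the test, and their summed level was 1001 CPM in STINGECKO 1 and 1693 CPM in STINGECKO 2, against 1023 and 1220 CPM in WT 3 and 5. Cox6a1, the ubiquitous isoform of a small regulatory subunit, was at 195 and 578 CPM in STINGECKO and 221 and 344 CPM in WT. Cox8a, the ubiquitous isoform of the smallest subunit, was at 70.5 and 206 CPM in STINGECKO and 76.5 and 135 CPM in WT. Both had STINGECKO 2 highest, WT 5 next, and STINGECKO 1 lowest. Cox7a2l, placed in this group by its symbol, ran the other way, at 437 and 315 CPM in STINGECKO and 373 and 387 CPM in WT.

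Several complex IV subunits have a pair of isoforms, and both were found for subunit 4. Per kilobase of transcript, Cox4i2, the isoform known from lung and from low oxygen, was at 58.4 and 118 CPM in STINGECKO and 58.9 and 45.5 CPM in WT, and the general isoform Cox4i1 at 146 and 202 against 188 and 119 CPM. Cox4i2 made up 28.7% and 36.9% of the summed per-kilobase level of the pair in STINGECKO 1 and 2, and 23.8% and 27.7% in WT 3 and 5. The genotypes did not overlap in that share, which was not tested, and STINGECKO 1 and WT 5 differed by under 1 percentage point. Cox4i2 is also expressed by pericytes. Summed pericyte and smooth muscle markers were higher in both STINGECKO libraries. Most of that sum was Rgs5, at 6849 and 7225 CPM in STINGECKO and 5591 and 4876 CPM in WT. Of 8 markers 4 were higher without overlap, where 15.4% of all genes tested were. Only 1 was lower without overlap, where 19.0% of all genes tested were, and Pdgfrb, Abcc9 and Notch3 overlapped. The part of pericytes in the Cox4i2 share was not tested. Cox6b1, the general isoform of subunit 6b, was at 7.58 and 26.1 CPM in STINGECKO and 6.84 and 15.1 CPM in WT, and Cox7a2, a general isoform of subunit 7a, at 41.4 and 106 against 42.7 and 61.9 CPM. The muscle isoforms Cox6a2, Cox7a1 and Cox8b are not analysed here.

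Of the 15 nuclear complex V genes 5 were above 0 and 10 below, where 48.2% of all genes tested were above 0, and the median log2 fold change was -0.15. Lower in STINGECKO without overlap were 5 of the 15, where 19.0% of all genes were, and 0 passed the test. Whether complex V differed from the other complexes was not tested. Atp5b, the catalytic beta subunit and the most abundant nuclear member, was at 1441 and 1374 CPM in STINGECKO and 1532 and 1753 CPM in WT (log2 fold change -0.22, SE 0.16). Atp5a1, the alpha subunit, was at 429 and 419 CPM in STINGECKO and 451 and 598 CPM in WT (log2 fold change -0.31, SE 0.21). Atp5f1, of the peripheral stalk, was at 187 and 193 CPM in STINGECKO and 196 and 280 CPM in WT. In these 3 genes the STINGECKO libraries lay close together, WT 3 just above them and WT 5 well above. Atp5k, a small subunit of the membrane part, was the least abundant with 23 and 31 reads in STINGECKO and 43 and 20 in WT. Summed over the complex, the level was 2931 and 3007 CPM in STINGECKO and 3066 and 3561 CPM in WT, a mean of 2969 ± 54.1 CPM in STINGECKO and 3314 ± 350 CPM in WT (SD, n = 2 each).

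Subunit c forms the rotating ring of ATP synthase and comes from 3 genes that differ in their import sequence and encode the same mature protein. Atp5g1 was at 41.5 and 67.4 CPM in STINGECKO and 62.3 and 48.7 CPM in WT. Atp5g2 was at 67.2 and 63.5 CPM in STINGECKO and 93.0 and 76.5 CPM in WT, lower without overlap (log2 fold change -0.38, SE 0.33), but only 12.6% of its 50-base windows were unique, so its counts are uncertain. Atp5g3 was at 64.9 and 78.5 CPM in STINGECKO and 66.5 and 92.9 CPM in WT. Their sum was 174 and 209 CPM in STINGECKO and 222 and 218 CPM in WT. Of the 2 genes that carry the symbol of ATP synthase only, Atp5sl, known in human cells as an assembly factor of complex I, was at 69.8 and 103 CPM in STINGECKO and 35.0 and 40.9 CPM in WT. It had the largest log2 fold change of the 87 members tested, 1.19 (SE 0.40, unadjusted p = 0.0312, adjusted p = 0.977 by edgeR's quasi-likelihood test, Benjamini-Hochberg adjusted). Atp5s was at 8.18 and 18.8 CPM in STINGECKO and 14.9 and 10.2 CPM in WT.

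**Figure D4:**
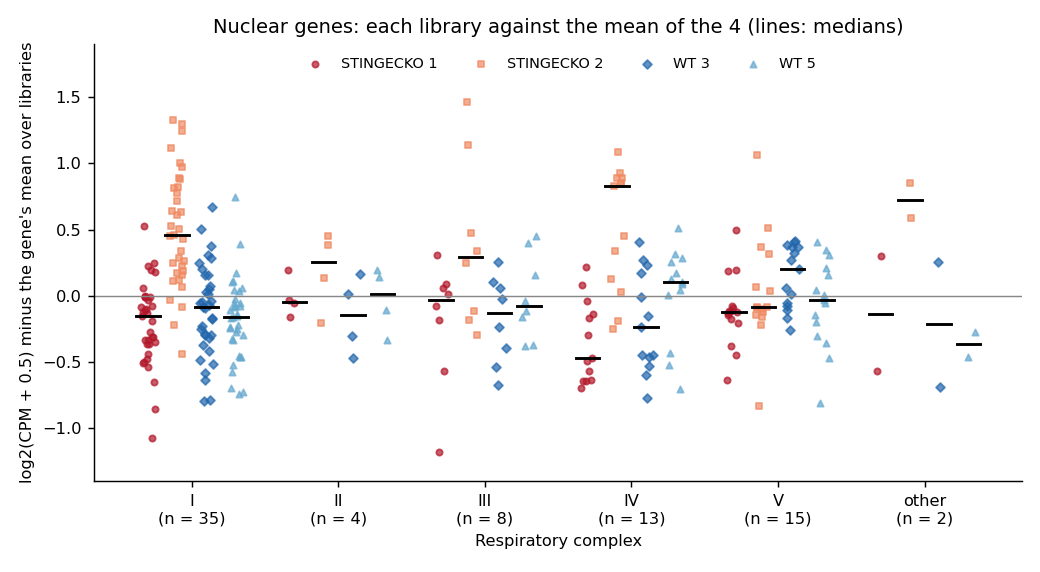
Deviation of each library from the gene's own mean over the 4 libraries, as log2(CPM + 0.5), for the 77 nuclear genes tested, by complex; points are genes and black lines medians. STINGECKO 2 has the highest median in every complex except complex V.

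Among the nuclear members the 2 STINGECKO libraries stood apart from each other. STINGECKO 2 was the highest of the 4 libraries for 48 of the 77 nuclear members tested (62.3%), against 29.8% of all genes tested. Among members with a mean of at least 20 CPM it was highest for 37 of 52 (71.2%), against 34.3% of 6929 genes at that level. The median difference of STINGECKO 2 minus STINGECKO 1 in log2(CPM + 0.5) was 0.48 over the 77 nuclear members and -0.12 over all genes tested. The same difference of WT 5 minus WT 3 was 0.03 and 0.02. Among nuclear members of at least 50 CPM, Ndufb8 had the widest gap, at 21.5 and 99.6 CPM in STINGECKO and 47.4 and 43.1 CPM in WT. Ndufb7 followed, at 89.9 and 321 CPM in STINGECKO and 73.3 and 125 CPM in WT, and then Uqcrq, Cox6a1 and Cox8a. All 5 of these encode small accessory subunits, and in each of them both WT libraries lay between or close to the 2 STINGECKO values.

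Of those 5 genes, 4 had transcripts of 550 to 680 bases, while that of Uqcrq was 1521 bases long. Lengths are those of a single annotated transcript per gene, which need not be the main one in these cells. The 26 shortest nuclear members (371 to 682 bases) had a median ratio of STINGECKO 2 over STINGECKO 1 of 1.65, the next 26 (683 to 1166 bases) 1.42, and the 25 longest (1231 to 4715 bases) 1.23. For WT 5 over WT 3 the same medians were 0.982, 0.856 and 1.09. Across the 52 nuclear members of at least 20 CPM, Spearman's rho of the STINGECKO 2 minus STINGECKO 1 difference with transcript length was -0.50, and that of the WT 5 minus WT 3 difference was -0.12. Over all 6813 protein-coding genes tested at that level the values were -0.15 and -0.07. These are correlations across genes that share the same libraries, genes are not independent replicates, and whether length or RNA quality had a part in the high values of STINGECKO 2 was not tested. The relation was weaker over all 77 nuclear members (rho -0.21), which take in genes with few reads.

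**Figure D5:**
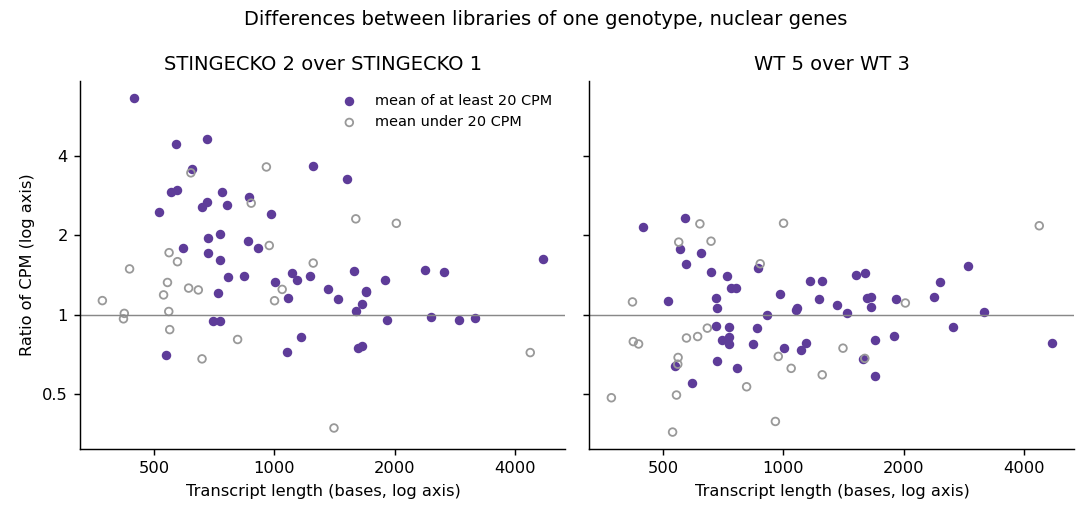
Ratio of CPM between the libraries of one genotype against transcript length for the 77 nuclear genes tested (log axes), STINGECKO 2 over STINGECKO 1 on the left and WT 5 over WT 3 on the right; filled points have a mean of at least 20 CPM. On the left the 26 shortest genes have a median ratio of 1.65 and range from 0.681 to 6.61, and on the right their median is 0.982.

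The authors' own comparisons set 1 library against 1 library. In the authors' deposited table of STINGECKO 1 against WT 3, 40.9% of listed genes were marked as changed. That authors' deposited table marked 3 of the 78 nuclear members, Ndufb6 as higher and Ndufb8 and Atp5j2 as lower in STINGECKO, and of the mitochondrial members mt-Nd5 alone, as lower. In the authors' deposited table of STINGECKO 2 against WT 5, 52.1% of genes were marked, with 18 of the 78 nuclear members (16 higher and 2 lower in STINGECKO) and mt-Co2 of the mitochondrial members, as higher. The median log2 fold change by the authors' deposited tables was -0.12 in the first pair and 0.54 in the second for nuclear members, and -0.78 and 0.05 for mitochondrial members. Mitochondrial members were thus below 0 in 10 of 10 in the first pair and in 5 of 10 in the second.

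The promoters of the nuclear members were searched for elements that the name rule did not use. Windows from 250 bases before to 50 bases after the annotated start were taken from RefSeq (GRCm38.p6) for 63 of the 78 nuclear members. They were searched on both strands for the core of the NRF1 site (GCGCANGCG), the ETS core bound by GABP (CCGGAAG) and the YY1 core (AAGATGG). NRF1 is a nuclear activator of respiratory genes, and GABP, whose DNA-binding subunit is Gabpa, is its classical partner. An NRF1 core was found in 20 of 63 nuclear members (31.7%), against 15.7% of 9345 protein-coding genes listed in both tables. The ETS core was in 25.4% against 20.3%, the YY1 core in 15.9% against 8.49%, and at least one of them in 60.3% against 37.8%. These shares were not tested against each other. The 2 stretches below, of 130 bases each before the start, show what an ETS match looks like, with the match in capitals. They come first in a ranking by kinds and number of matches among windows whose matches all lie before the start, where the stretch lies in no annotated gene. Atp5e encodes the epsilon subunit of the central stalk of ATP synthase (chr2:174464136-174464265, minus strand), and Ndufb6 an accessory subunit of the membrane arm of complex I (chr4:40279542-40279671, minus strand). In both the ETS core is on the opposite strand and so reads CTTCCGG here.
Atp5e: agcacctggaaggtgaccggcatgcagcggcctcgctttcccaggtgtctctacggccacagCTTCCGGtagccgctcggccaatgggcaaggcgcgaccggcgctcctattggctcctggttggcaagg
Ndufb6: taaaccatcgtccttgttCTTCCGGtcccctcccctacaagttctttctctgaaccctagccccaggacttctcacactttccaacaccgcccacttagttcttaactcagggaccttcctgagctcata
Atp5e was at 9.27 and 9.37 CPM in STINGECKO and 12.3 and 9.69 CPM in WT, and Ndufb6 had 53 and 43 reads in STINGECKO and 22 and 40 in WT. The genotypes did not overlap in either gene; Atp5e was lower and Ndufb6 higher in STINGECKO, and the closest libraries of the 2 genotypes were nearly level in both. A match of letters is a description of the window and no evidence of binding.

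Other genes of oxidative phosphorylation, from lists chosen with earlier results known, had 0 members past the edgeR test. Of 7 tested subunits and carriers whose names fall outside the pattern 6 were above 0 (median log2 fold change 0.52). Ndufa4l2, a relative of Ndufa4 induced by low oxygen and also found in pericytes, was at 495 and 516 CPM in STINGECKO and 397 and 306 CPM in WT, without overlap. Complex I assembly factors were balanced, with 8 of 15 above 0 (median 0.03). Ndufaf1, one of them, was at 16.4 and 13.6 CPM in STINGECKO and 25.0 and 41.4 CPM in WT. Assembly factors of complexes II to V were above 0 in 16 of 25 (median 0.20), among them Sdhaf2, which helps attach flavin to complex II, at 62.2 and 91.9 CPM in STINGECKO and 27.3 and 45.3 CPM in WT.

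Genes that read and process mitochondrial DNA were below 0 in 15 of 25 (median log2 fold change -0.30). Ptcd3, a protein of the mitochondrial ribosome, had 511 and 58 reads in STINGECKO and 820 and 1555 in WT, and Hsd17b10, a subunit of mitochondrial RNase P, at 106 and 160 against 80.8 and 85.2 CPM. Of 8 tested regulators of respiratory genes 6 were below 0 (median -0.20). Without overlap 2 of them were higher and 1 lower in STINGECKO, where 15.4% and 19.0% of all genes tested were. Ppargc1b, a coactivator of mitochondrial biogenesis, had 2 and 21 reads in STINGECKO and 177 and 368 in WT, and Gabpa had 802 and 437 reads in STINGECKO and 1185 and 896 in WT. Scaled for depth, Gabpa overlapped between the genotypes, with STINGECKO 1 at 43.7 CPM and WT 5 at 43.2 CPM. Citric acid cycle genes were below 0 in 10 of 16 (median -0.16), and without overlap 4 were higher and 5 lower in STINGECKO. Dlst, a subunit of the 2-oxoglutarate dehydrogenase complex, was at 30.2 and 22.4 CPM in STINGECKO and 38.5 and 86.3 CPM in WT, and Dld, which that complex shares with pyruvate dehydrogenase, at 63.0 and 19.5 against 118 and 86.3 CPM. Ubiquinone synthesis genes were below 0 in 10 of 13 (median -0.34), with Coq8a at 4 and 0 reads in STINGECKO and 107 and 295 in WT, and Coq2 at 15.2 and 28.8 CPM in STINGECKO and 4.48 and 6.46 CPM in WT. Among genes of few reads, STINGECKO 2 had more zeros than the other libraries, as given at the outset, and its part in these values was not tested.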

How the data were processed

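RNA of mouse brain endothelial cells was sequenced and counted per gene in 2 STINGECKO and 2 WT libraries. Alignment and counting tools in the submitters' processing notes are TopHat2 2.0.12, Bowtie2 2.2.3 and HTSeq 0.6.0, with the build mm9. Of the 88 members, 74 have the positions of GENCODE M21 on GRCm38 in the deposited tables, and coordinates are printed on that build. The sources used here state no strand or multi-mapping setting. Counts, as deposited by the authors, are whole reads for each gene. The deposited CPM columns, the authors' fold ratio, their log2 of it and their p-value columns compare 1 library with 1 library; only the ratio and the marks of change were used.

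Counts of the 14100 genes in both tables were fitted in R 4.3.3 with edgeR 4.0.16, after filtering by filterByExpr (minimum count 10) and TMM scaling. The quasi-likelihood test gave p-values for 13365 genes, adjusted by Benjamini-Hochberg and called under 0.05. The edgeR step was tested on simulated data with changes far larger than those fitted for the members. That run cannot show whether differences of the members' size would be found. CPM in the text uses TMM-scaled totals, 1 read being 0.0452 to 0.0539 CPM before scaling. The alternatives were limma-voom (limma 3.58.1), DESeq2 1.42.0, edgeR's likelihood ratio test, other scalings and filters, the deposited table as a block, and leaving out each library. Windows of 50 bases were compared among GENCODE transcripts. Transcript lengths, levels per kilobase and the windows of a gene rest on its principal annotated transcript. Where several ranked equally, the longest protein-coding one was taken. Genes named with values were the mitochondrial members, members with under 10 reads in a library, isoform pairs, subunit c genes, core subunits, the highest and lowest members of each complex, the 5 widest gaps within a genotype at 50 CPM or more, the 5 smallest p per direction without overlap, and 2 genes per further list. Atp5e, Ndufb6, Atp5s and the chromosome 1 copies were named after their values were seen. The members and lists were chosen with earlier results of these data known.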

Additional observations from a re-analysis of the deposited data

How the results depend on the processing

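No paired analysis was possible because the genotypes share no replicate number; the deposited table served as a block instead and called 0 genes. DESeq2 called 87 genes and the edgeR likelihood ratio test 33, in place of 0, and in every alternative run 0 members were called. The nuclear median log2 fold change (0.18) ranged from -0.16 to 0.43 when 1 library was left out and from 0.10 to 0.20 under the other alternatives. The mitochondrial median (-0.35) ranged from -0.66 to 0.081 when 1 library was left out and from -0.50 to -0.30 otherwise. The difference in the share of reads, STINGECKO minus WT, ranged from -0.336 to -0.0614 percentage points for mitochondrial members (-0.199 with all libraries) and from -0.0567 to 0.158 for nuclear members (0.0505). Restricted to mitochondrial members with over 90% unique windows, an alternative chosen after seeing the data, it was -0.0523 for the mitochondrial share. The log2 ratio of mitochondrial to nuclear member reads differed by -0.40 (-0.69 to -0.12 without single libraries) and by -0.99 with medians of members in place of sums; the cause was not tested. Of 20 genes followed through 276 alternative values, 15 kept their direction in all. The 20 were the mitochondrial members and the 5 nuclear members per direction with the smallest p and no overlap between genotypes. Where the genotypes do not overlap, leaving out 1 library can hardly turn the direction. For such genes, which include 4 mitochondrial members, those runs cannot show stability. The direction turned when 1 library was left out for mt-Nd2 (-0.58 to 0.22, at 0.03 without STINGECKO 1), mt-Co2 (-0.59 to 0.87), mt-Co3 (-0.89 to 0.71) and mt-Atp6 (-0.50 to 0.28). For mt-Cytb (0.03) it turned with upper quartile factors (-0.0022), library totals (-0.0026) and a minimum mean of 50 CPM (-0.012), and without STINGECKO 2 (-0.18) or WT 5 (-0.17), with 0.27 as its highest value, without WT 3. Leaving out a library leaves 1 sample in its genotype, which is then assumed to vary like the other. Counts of 16 to 96 reads limit what can be said of mt-Co2 and mt-Co3.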
